A study of Mus musculus with 2 samples.

Results

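Bone morphogenetic proteins (BMPs), the genes that answer them and the brakes on the pathway were examined in mouse epidermis after induction of the transcription factor SOX11. The set held Bmp2, Bmp4 and Bmp7 (ligands), Id1, Id2, Id3 and Id4 (classical target genes), Smad6 and Smad7 (inhibitory Smads) and Bambi (a decoy receptor). All non-control probes carrying 1 of these 10 gene names in both scanner files were taken, which gave 11 of 55681 probes. Bmp4 had a pair of probes and the other genes a single one.

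The pups were of the FVB/N strain at postnatal day 4.5. SOX11-induced pups carried K14-rtTA and TRE-Sox11-FLAG, and controls were littermates with K14-rtTA as their sole transgene. K14-rtTA directs a doxycycline-dependent activator to keratin 14 positive cells, so the transgene is driven in those cells and not in the whole tissue. Control and induced pups alike received doxycycline (Dox) for 12 h, and RNA came from epidermal sheets peeled off the dorsal dermis. There were 2 littermate pairs, each on its own 2-colour Agilent array, with the control in Cy3 and the SOX11-induced pup in Cy5 on both arrays. What the dye does to a probe and what the genotype does cannot be told apart with that layout. With 2 pairs, an exact sign-flip test cannot go below p = 0.5, so adjusted p-values rest on the variance prior that limma shares across 55676 tested probes.

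BMP ligands are secreted dimers that bind serine/threonine kinase receptors, which phosphorylate Smad1, Smad5 or Smad9. These join Smad4, enter the nucleus and switch on target genes, among which the Id genes are the best known. ID proteins lack a DNA-binding region and hold back other helix-loop-helix factors, and Smad6 and Smad7 are themselves induced by the pathway and feed back on it. In skin, BMP signals act in the differentiation of hair shaft cells, in the rest phase of hair follicle stem cells and in the epidermis above them.

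No probe of the set rose or fell past the threshold after 12 h of SOX11 induction. At an adjusted p under 0.05 (limma, Benjamini-Hochberg over all probes), 0 of 11 probes passed, where 4.39% of all tested probes did (2.99% higher, 1.41% lower). Among probes above background 9.99% did (6.78% higher, 3.21% lower), and 1.16% also changed by more than 1.5 on the log2 scale, which none of the set did. At an unadjusted p under 0.05, 1 of 11 passed (Smad6), where 21.1% of all tested probes did. The count of 0 rests on loess. With each array centred on its median instead, 5 of 11 were higher, where that setting called 21.8% of all tested probes higher. Mean log2 ratios of the 8 probes above background ran from -0.32 for Bmp2 to 0.89 for Smad6. The 10 genes had a median log2 ratio of -0.04, and the 8 above background a median of 0.06, beside 0.03 for all gene names above background.

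**Figure D1:**
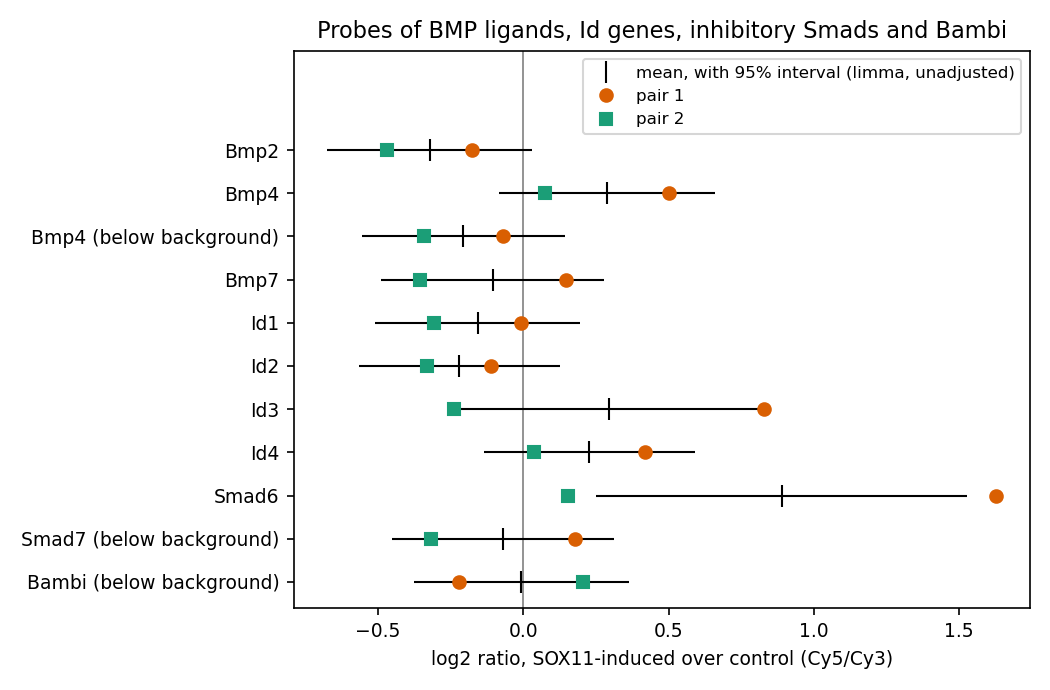
Log2 ratio of SOX11-induced over control epidermis for each of the 11 probes, with pair 1 as circles, pair 2 as squares, and the mean with its 95% interval from the limma fit (unadjusted) as a bar. Smad6 alone has an interval clear of 0, from 0.25 to 1.53, while its pair values of 1.63 and 0.15 both lie outside that interval.

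The ligands came first. BMP2 and BMP4 are close relatives, and BMP7 belongs to a separate branch of the family. Bmp2, probed on chromosome 2 at 133388260-133388319 (mm9), gave a log2 ratio of -0.18 in pair 1 and one of -0.47 in pair 2. Their mean was -0.32 ± 0.206 (SD over 2 pairs, as for each ± below), with an adjusted p of 0.277 in limma. It was thus lower in both SOX11-induced pups, by amounts that did not pass the test, and the 95% interval of the mean ran from -0.67 to 0.03. The levels below are log2 channel values after loess and quantile scaling of brightness between arrays, and serve to compare pups within 1 probe. The Bmp2 level was 10.4 in the control and 10.2 in the SOX11-induced pup of pair 1, and 11.2 and 10.8 in pair 2. The pairs therefore differed more from each other than the littermates did.

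Bmp4 was read by probes on the reverse strand of chromosome 14 at 47003391-47003450 and 47003198-47003257. The first was above background in all 4 pups, with a log2 ratio of 0.50 for pair 1 against 0.07 for pair 2 (mean 0.29 ± 0.302, adjusted p = 0.354, interval -0.08 to 0.66). Its level was 9.48 in the control of pair 1, 9.98 in its SOX11-induced littermate, 10.7 in the control of pair 2 and 10.8 in the induced littermate there. The control of pair 1 was thus the lowest of the 4 pups, 1.21 log2 units under the control of pair 2. The second Bmp4 probe was too dim to be well above background in any pup, with ratios of -0.07 and -0.34. It begins at base 1931 of the transcript, against 1738 for the first, and G and C make up 15% of it against 38.3%.

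Bmp7 was probed on chromosome 2 at 172695203-172695262. Pair 1 gave a log2 ratio of 0.15 and pair 2 one of -0.36, with a mean of -0.11 ± 0.356 (adjusted p = 0.769, interval -0.49 to 0.28). The pairs had opposite signs. Its level was 12.1 in the control and 12.2 in the SOX11-induced pup of pair 1, and 12.5 and 12.2 in pair 2, so the induced pups lay together and the controls apart.

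None of the Id genes passed the threshold. Id1, on chromosome 2 at 152563083-152563142, gave -0.01 in pair 1 and -0.31 in pair 2 as log2 ratios (mean -0.16 ± 0.213, adjusted p = 0.61). Id2, on chromosome 12 at 25778904-25778963, had ratios of -0.11 and -0.33 (mean -0.22 ± 0.156, adjusted p = 0.448). Both were at or under their control littermates in each pair. Intervals of the mean reached from -0.51 to 0.20 for Id1 and from -0.57 to 0.12 for Id2. Levels of Id1 in control and SOX11-induced pup were 7.95 and 7.95 in pair 1 and 7.89 and 7.58 in pair 2. Those of Id2 were 8.60 and 8.49 in pair 1 and 8.39 and 8.06 in pair 2, so for both genes the induced pup of pair 2 was the lowest of the 4.

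Id3, on chromosome 4 at 135700075-135700249, had the widest spread of the Id genes. Its log2 ratio was 0.83 in pair 1 (1.78-fold) and -0.24 in pair 2 (0.847-fold), with a mean of 0.29 ± 0.755 (adjusted p = 0.504, interval -0.22 to 0.81). The directions were opposite. Its level was 8.65 in the control of pair 1 against 9.48 in the induced littermate, 9.80 in the control of pair 2 and 9.56 in the induced pup there. The induced pups thus differed by 0.08 log2 units and the controls by 1.15. Id4, on chromosome 13 at 48358668-48358727, had ratios of 0.42 and 0.04 (mean 0.23 ± 0.271, adjusted p = 0.46, interval -0.14 to 0.59). Its level was 9.57 and 9.98 in pair 1 and 10.1 and 10.1 in pair 2, again with the control of pair 1 lowest.

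The Id3 probe is shown because this gene swung most among the Id genes. It is 60 bases long, its span on the genome is longer than that, so it crosses a splice junction, and 1 of its reading frames holds no stop. It is printed in lower case without a marked stretch, as the array file gives it.
Id3 probe: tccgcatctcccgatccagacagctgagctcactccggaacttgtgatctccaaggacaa

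**Figure D2:**
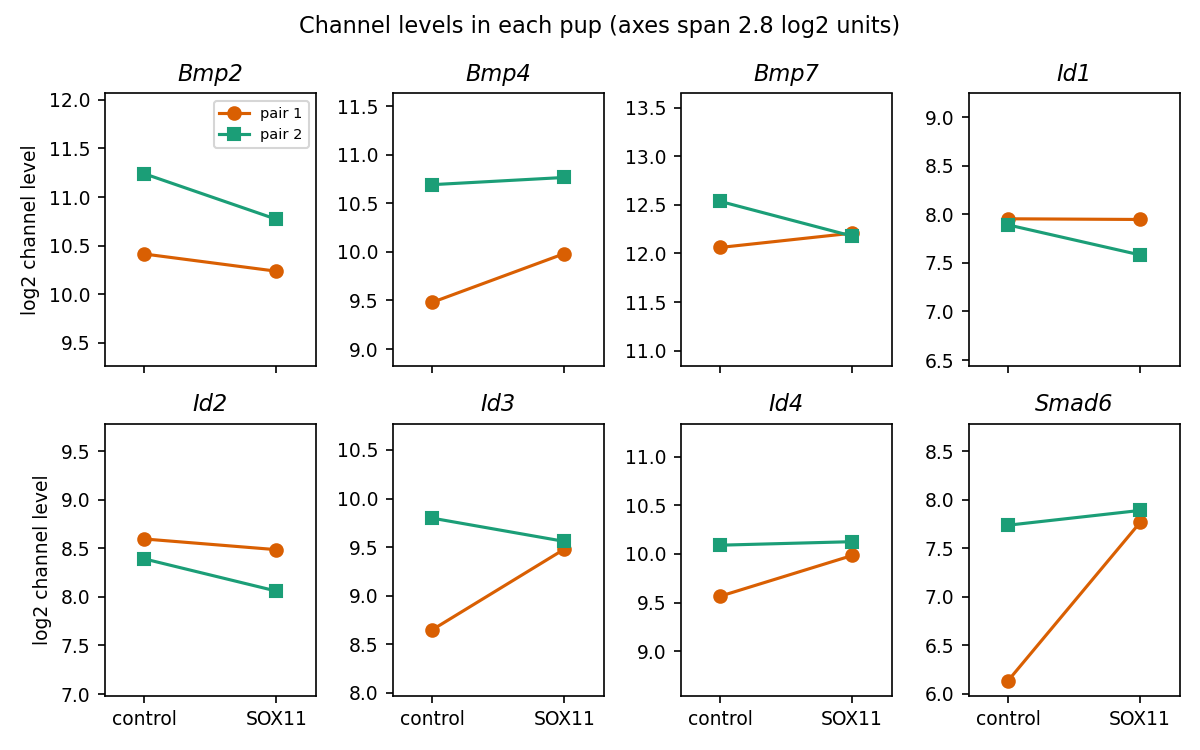
Log2 channel level of the 8 genes above background in control and SOX11-induced pups, with littermates joined by a line (pair 1 circles, pair 2 squares) and each axis spanning the same number of log2 units. For Smad6 and Id3 the induced pups meet at 7.77 and 7.89 and at 9.48 and 9.56, and the controls lie apart.

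The inhibitory Smads and Bambi followed. Smad6, which blocks BMP receptors and Smad1, had the largest mean of the set. Its probe on chromosome 9 at 63800980-63801039 had a log2 ratio of 1.63 in pair 1 (3.09-fold) and of 0.15 in pair 2 (1.11-fold). The mean was 0.89 ± 1.04, an SD above the mean itself (adjusted p = 0.115, interval 0.25 to 1.53). Pair 1 carried nearly all of that mean. The Smad6 level was 6.14 in the control of pair 1, and 7.77, 7.74 and 7.89 in the SOX11-induced pup of pair 1, the control of pair 2 and the induced pup of pair 2. The control of pair 1 stood 1.60 log2 units under the other control, while the induced pups differed by 0.12. That control spot was dim, with a brightness of 56.7 against 171.3 in the control of pair 2, though it was called well above background. With an offset of 50 in the background correction the Smad6 mean was 0.69. Smad7, which acts on both BMP and TGF-beta receptors, and Bambi were not well above background in any pup. Their log2 ratios were 0.18 and -0.32 for Smad7 and -0.22 and 0.21 for Bambi, and no change can be read from them.

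The pairs thus differed in the same direction across the genes. All 8 genes above background had a higher ratio in pair 1 than in pair 2, by a median of 0.41 log2 units, where 49.9% of the 21782 probes above background did. A gap at least as large as that of Smad6 (1.48) was found in 1.11% of probes above background, and one as large as that of Id3 (1.07) in 2.07%. The gaps of Bmp7 (0.50), Bmp4 (0.43) and Id4 (0.38) were matched or passed by 11.8%, 17% and 20.7%, and those of Bmp2, Id1 and Id2 by between 30.2% and 43.3%. The last 3 are common sizes. The comparison of pairs has 1 array on each side and no test.

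Most hair follicle markers also had a higher ratio in pair 1 than in pair 2, namely all 13 hair shaft and matrix genes and 6 of 7 inner root sheath genes. The exception was Gata3 (-0.78 in pair 1, -0.75 in pair 2). Of 13 genes of the hair shaft and matrix, all were above background in every pup. Their summed linear level was 38900 in the control of pair 1, 184000 in its SOX11-induced littermate, 336000 in the control of pair 2 and 270000 in the induced littermate there. The ratio of induced to control was 4.73 in pair 1 and 0.804 in pair 2. The 7 inner root sheath genes gave 76600, 240000, 361000 and 275000 in the same order, so the control of pair 1 was lowest on both lists, as it was for Bmp4, Bmp7, Id3, Id4 and Smad6. Msx2 is on the hair list and Gata3 on the inner root sheath list, and both are pathway genes too. Fewer cells of a type and less RNA per cell cannot be told apart in such samples, and the part of hair follicle cells in the ratios of these genes was not tested.

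Markers of other cell types were read too. All 6 dermal papilla genes and 5 of 7 endothelial genes were below background in every pup, with summed endothelial levels from 820 to 871. Of 9 dermal fibroblast genes 5 were below background throughout, and their summed level ran from 928 to 1630. The 5 immune genes summed to 27700 and 22300 in pair 1 and to 9000 and 6820 in pair 2. The 5 melanocyte genes summed to 9620 and 12600 in pair 1 and to 7480 and 7240 in pair 2, a ratio of induced to control of 1.31 against 0.968. The 3 smooth muscle genes summed to 259 and 485 in pair 1 and to 420 and 363 in pair 2, a ratio of 1.87 against 0.864. Of the smooth muscle genes, 1 (Tagln, log2 ratios 1.11 and -0.31) was above background in every pup and 1 (Myh11) was below it throughout. The ratio of summed levels was thus higher in pair 1 for the melanocyte and smooth muscle lists too. For smooth muscle the control of pair 1 was again lowest, on a list of dim genes. For immune genes the ratio was 0.805 in pair 1 and 0.758 in pair 2. It was lower in pair 1 for dermal fibroblast (0.786 against 1.28), endothelial (0.944 against 0.96) and epidermal genes (1.13 against 1.22). Of the epidermal genes, 3 were lower in both pairs (Krt5, Krt14 and Trp63 at its brightest probe). The other 4 were higher in both (Krt1, Krt10, Lor and Ivl). Among fibroblast genes Dcn fell past the threshold (-0.97 in pair 1, -0.62 in pair 2, limma adjusted p = 0.026). Col1a1, Col1a2 and Col3a1 gave -0.03, -0.17 and -0.17 in pair 1 but 0.77, 1.14 and 0.91 in pair 2, without passing. The part of these cell types in the ratios of the set was not tested. The 7 epidermal genes, with keratins 5, 14, 1 and 10 among them, were above background in all pups and summed to between 450000 and 611000, the highest of the lists.

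**Figure D3:**
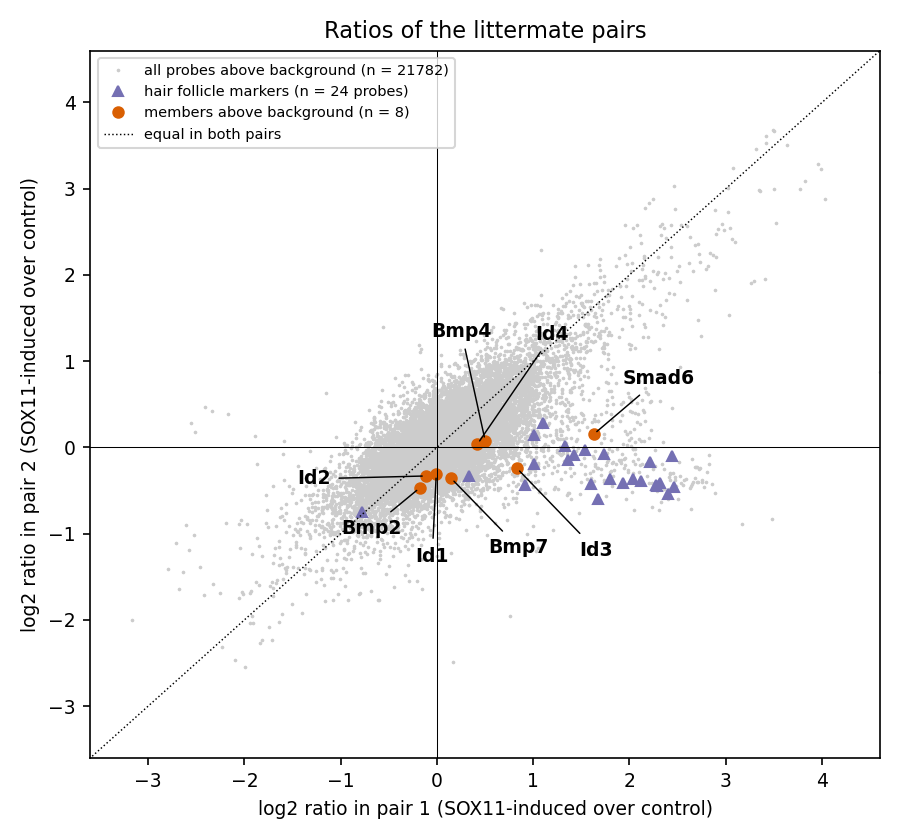
Log2 ratio of SOX11-induced over control in pair 1 (horizontal) against pair 2 (vertical) for 21782 probes above background (grey), the 8 genes of the set above background (circles, named) and hair follicle markers (triangles). Smad6 (1.63 and 0.15) and Id3 (0.83 and -0.24) lie right of the diagonal, on the side of all hair markers but Gata3. The shaft and matrix genes have a median of 2.21 in pair 1 and -0.38 in pair 2.

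The rest of the pathway was read from 76 further genes grouped by role, with 106 probes, of which 66 were above background. Of the 106, 7 rose and 6 fell at an adjusted p under 0.05, where 2.99% of all tested probes rose and 1.41% fell. Of the 66 above background, 7 rose and 5 fell, where 6.78% of all probes above background rose and 3.21% fell. Median ratios over genes above background were 0.22 for these genes and 0.03 for all gene names.

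Among signal transducers, probes of Smad1, Smad5 and Smad4 rose. The Smad1 probe on chromosome 8 at 81863015-81863074 gave 0.64 and 0.62 (mean 0.63 ± 0.0122, adjusted p = 0.0476). A Smad4 probe had 0.76 and 0.58 (mean 0.67 ± 0.129, adjusted p = 0.0413). The Smad5 probe that passed, on chromosome 13 at 56838912-56838971, was at the edge of the threshold (0.50 and 0.83, mean 0.66 ± 0.236, adjusted p = 0.05). No control channel of this probe was well above background, so its mean of 1.58-fold (1.41 in pair 1, 1.78 in pair 2) rests on dim controls. Sister probes pointed the same way without passing. The brighter Smad5 probe had a mean of 0.58 (adjusted p = 0.0753), the other Smad4 probe 0.54 (adjusted p = 0.115) and the second Smad1 probe above background 0.49 (adjusted p = 0.171). Smad9 was below background. The calls of Smad1 and Smad4 ended with median spot brightness (adjusted p = 0.0878 and 0.0575), and that of Smad5 ended when outlier spots were kept (0.0512).

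None of the receptors passed. The type I receptor gene Bmpr1a had ratios of 0.52 and 0.47 (mean 0.50, adjusted p = 0.099). Acvr1, which encodes another type I receptor, was read by a probe averaging 0.64 (adjusted p = 0.0539) and a brighter one averaging 0.48 (adjusted p = 0.114). Among type II receptor genes, Bmpr2 had a mean of 0.02, Acvr2b one of 0.48 (0.85 and 0.10) and Acvr2a one of 0.27 at its brighter probe. Bmpr1b had a mean of 0.21 at its brighter probe. Acvrl1, a receptor known from endothelium, had -0.51 (adjusted p = 0.108). Of the 10 receptor and activating Smad genes above background, 8 were positive in both pairs and 1 was negative in both, against 6564 and 5583 of 16341 gene names above background. The co-receptor gene Tgfbr3 fell, with -1.25 and -0.84 (mean -1.05 ± 0.291, adjusted p = 0.00818) on chromosome 5 at 107535818-107535877.

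Secreted antagonists, which bind ligands outside the cell, moved both ways. Of 17 genes, 9 were above background, 1 rose and 2 fell. Fst (follistatin), on chromosome 13 at 115243565-115243624, had -0.59 and -1.20 (mean -0.90 ± 0.434, adjusted p = 0.0259). Fstl3, a relative that binds activin as follistatin does, had -1.15 and -0.67 (mean -0.91 ± 0.336, adjusted p = 0.0185) on chromosome 10 at 79244916-79244975. Under median centring both calls ended, with means of -0.21 for Fst (adjusted p = 0.362) and -0.34 for Fstl3 (adjusted p = 0.165). Fstl1 rose, with 1.94 and 0.53 (mean 1.23 ± 0.995, adjusted p = 0.038) on chromosome 16 at 37836492-37836551, and here too pair 1 was the larger. Its adjusted p was 0.0537 with median spot brightness and 0.0819 when dim probes were left out of the fit. Nog, which encodes the BMP antagonist noggin, had 0.09 and -0.04 (mean 0.02, adjusted p = 0.948), and the probes of Sostdc1 averaged -0.55 (adjusted p = 0.0778) and -0.41 (adjusted p = 0.164).

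Of 10 intracellular regulators, Tgif1, a corepressor of Smads, passed, with 1.44 and 1.14 (mean 1.29 ± 0.211, adjusted p = 0.0022) on chromosome 17 at 71193629-71193688. Smurf1, Smurf2, Ski, Skil, Tob1, Tob2 and Ppm1a did not. Of the 12 further BMP and GDF ligands, Bmp8a alone was above background. It had 1.19 in pair 1 and -0.15 in pair 2 (adjusted p = 0.3). A Bmp15 probe also passed with a negative ratio, but it was below background in every pup, so no change is given.

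Targets other than the Id genes were 8 developmental regulators. Gata3, a factor of epidermis and inner root sheath, fell, with -0.78 and -0.75 (mean -0.76 ± 0.0192, adjusted p = 0.0232) on chromosome 2 at 9779551-9779610. This adjusted p was 0.0575 with median spot brightness, and the mean was -0.10 under median centring in place of loess (adjusted p = 0.642). Msx2, a homeobox gene of the hair matrix that is also on the marker list above, had 1.54 in pair 1 and -0.03 in pair 2 (mean 0.75 ± 1.11, adjusted p = 0.188). Its gap resembled those of Smad6 and Id3. Msx1 (0.75 and 0.14), Dlx3 (0.59 and -0.23), Dlx5 (-0.26 and 0.76) and Atoh8 (0.36 and 0.16) did not pass.

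E proteins are the helix-loop-helix factors that ID proteins bind. The brightest probes of Tcf3, Tcf4 and Tcf12 had means of 0.60, 0.36 and 0.45. All 3 were positive in both pairs, as were 6564 of 16341 gene names above background. None passed, with adjusted p-values of 0.107, 0.214 and 0.134. The second probes had means of 0.46 for Tcf3, -0.12 for Tcf4 (below background) and 0.25 for Tcf12.

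**Figure D4:**
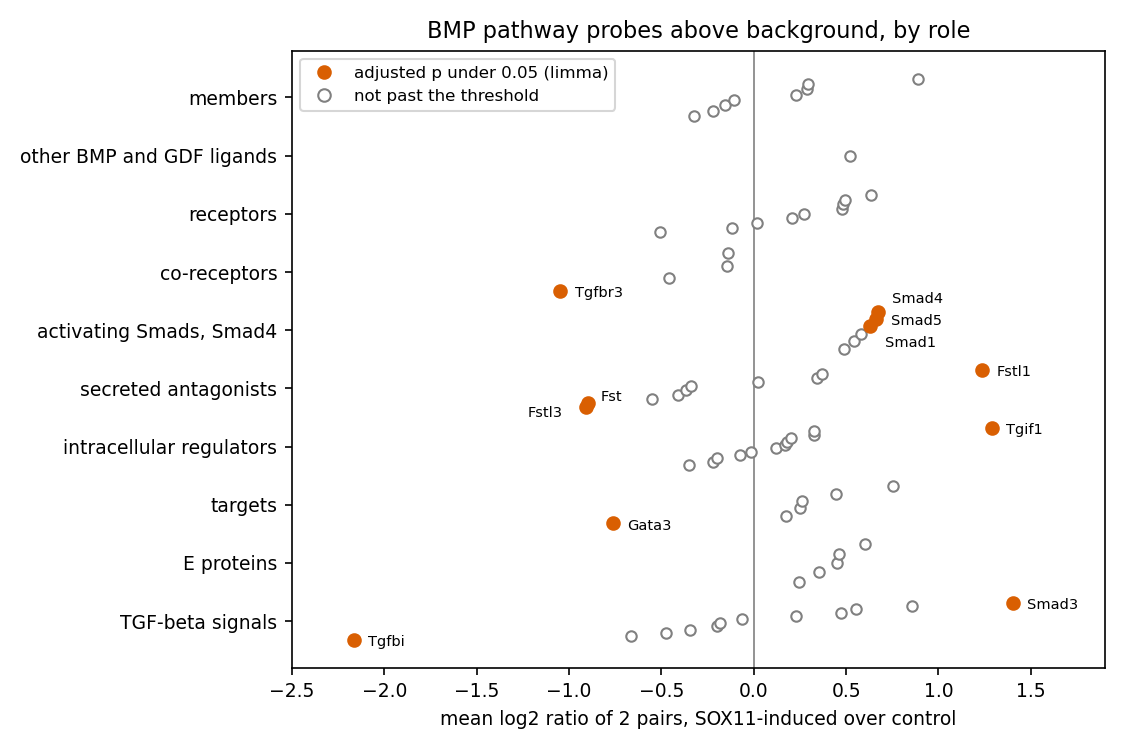
Mean log2 ratio of 2 pairs for probes above background (1 gene is not shown), grouped by role in the pathway, with filled circles for an adjusted p under 0.05 and open circles for the rest. The set itself holds open circles alone, between -0.32 and 0.89, while Smad1, Smad4 and Smad5 lie together near 0.65 and Fst, Fstl3, Gata3, Tgfbr3 and Tgfbi lie to the left.

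Promoters of 5 of 10 genes (Bmp4, Id2, Id3, Id4 and Smad6) were read from the RefSeq table for GRCm38.p6, and the others were not. Each ran from 250 bases before to 50 after the start. Those of Smad6, Id3 and Id2 are printed, as the genes with the widest gap between pairs and a steady one beside them. Motifs searched on both strands were GGCGCC (bound by Smad1 and Smad5), GTCTG (bound by Smad4), ACAAT and ACAAAG (SOX cores), and capitals mark their matches.
Smad6, chr9:64022010-64022309, reverse strand: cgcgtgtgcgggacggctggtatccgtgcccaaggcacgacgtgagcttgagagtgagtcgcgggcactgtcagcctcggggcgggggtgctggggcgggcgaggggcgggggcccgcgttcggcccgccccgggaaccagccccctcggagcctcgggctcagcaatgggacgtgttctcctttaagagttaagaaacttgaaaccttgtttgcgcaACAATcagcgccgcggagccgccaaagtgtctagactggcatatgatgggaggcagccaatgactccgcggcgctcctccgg
Id3, chr4:136143572-136143871, forward strand: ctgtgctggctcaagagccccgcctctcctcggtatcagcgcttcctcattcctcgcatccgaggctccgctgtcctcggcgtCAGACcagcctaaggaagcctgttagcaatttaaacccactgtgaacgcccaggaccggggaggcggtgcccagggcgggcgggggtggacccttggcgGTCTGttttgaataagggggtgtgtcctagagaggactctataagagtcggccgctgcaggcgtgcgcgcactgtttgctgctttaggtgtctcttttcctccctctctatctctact
Id2, chr12:25096043-25096342, reverse strand: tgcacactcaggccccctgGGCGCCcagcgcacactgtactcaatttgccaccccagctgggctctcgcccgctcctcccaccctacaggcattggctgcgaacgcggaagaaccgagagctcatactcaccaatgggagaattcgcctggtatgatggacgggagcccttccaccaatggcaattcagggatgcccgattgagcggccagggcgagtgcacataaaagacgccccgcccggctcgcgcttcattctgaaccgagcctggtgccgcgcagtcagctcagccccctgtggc

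The Smad6 window held 1 ACAAT, which 31% of the 32851 promoters searched hold. That of Id3 held 2 GTCTG, a motif found at least once in 49.6% of promoters, and those of Id2 and Id4 each held 1 GGCGCC, found in 11.9%. No ACAAAG was in the 5 windows, where 18.7% of promoters have it, and the Bmp4 window had none of the motifs. These matches describe letters in the windows and were not tested against the ratios.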

How the data were processed

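RNA of 2 littermate pairs was compared on 2 Agilent 2-colour arrays. The deposited intensity values are spot and local background brightness in scanner units, written per the file headers by Feature Extraction 10.7.3.1 with probe positions on mm9, and processed signals in the same files are background-subtracted and dye-normalized. The series table holds the log2 ratios that the authors made with normexp (offset 16) and loess. The methods describe a colour swap, a ComBat step and Feature Extraction of another version, which labels and headers here do not show.

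Mean spot brightness was corrected by normexp (offset 16) and loess in limma 3.58.1 (R 4.3.3). Outlier spots (194 and 186) were left out and spots of a probe averaged. An intercept was fitted to 55676 probes with eBayes (prior 8.34 degrees of freedom, SD 0.223) and Benjamini-Hochberg adjustment. The methods' further cutoff of log2 1.5 was passed by 0 of 11 probes and 0.453% of all. A probe counted as above background where at least 0.5 of its spots were well above it in a channel on both arrays (21782 probes). One number per gene came from the brightest probe. Channel levels were taken after loess and Aquantile scaling. The fit was tested on simulated data. Members and lists were chosen with earlier results of these data known. Named genes were all members, pathway genes past the threshold and the receptors, Smads, noggin and Msx2 that act with them. Other genes of the lists that did not pass were named without a set rule, and not all of them are given. No gene was ranked by likeness, since 2 arrays give 2 values a probe. Nothing in the labels ties the pups to batches. The p-values draw on the spread between these pairs and more on the shared variance prior, which holds 8.34 of 9.34 degrees of freedom. The number of arrays limits the precision. One pathway gene is counted in the totals and not reported here by name or in the plot by role.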

Additional observations from a re-analysis of the deposited data

How the results depend on the processing

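The count of 0 of 11 probes held under an offset of 50, median spot brightness, processed signals, dim probes left out, outlier spots kept and the series table. With median centring in place of loess, 5 probes were higher and 1 (the dim Bmp4 probe) was lower. That setting moved the median of all probes above background to 0.473 in pair 1 and 0.545 in pair 2, and called 21.8% of all probes higher. The means of Bmp2, Bmp7, Id1 and Id2 turned positive there, to 0.31, 0.58, 0.33 and 0.31, and Bmp7 passed there (adjusted p = 0.0233), as did Bmp4 (0.91), Id3 (0.88), Id4 (0.84) and Smad6 (1.33). No probe of the set was past log2 1.5 under any of these settings, which were added for this cutoff after seeing the data. Of the other pathway probes, 7 higher and 6 lower became 17 higher with an offset of 50, 4 higher with median spot brightness and 4 with the series table, 41 higher and 11 lower with median centring, and 0 in either direction with processed signals, where 0 of all probes passed and 8757 had an unadjusted p under 0.05. The cause of these shifts was not tested.

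Leaving out an array left 1 ratio and no test. Values then ran from -0.47 to -0.18 for Bmp2, 0.07 to 0.50 for Bmp4, -0.36 to 0.15 for Bmp7, -0.31 to -0.01 for Id1, -0.33 to -0.11 for Id2, -0.24 to 0.83 for Id3, 0.04 to 0.42 for Id4 and 0.15 to 1.63 for Smad6. Signs changed for Bmp7 and Id3. Every fit used the pairing, since littermates share an array. Probes below background limit what can be said of Smad7 and Bambi.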

Other observations

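TGF-beta signalling, which shares Smad4 with the BMP branch, was read beside it. Smad3, a transducer of TGF-beta, gave 1.78 in pair 1 and 1.03 in pair 2 on the log2 scale (mean 1.40 ± 0.529, adjusted p = 0.00429, limma) on chromosome 9 at 63494574-63494633, and its dimmer probe, with the control below background, had a mean of 0.47 (adjusted p = 0.114). Tgfbi, named for its induction by TGF-beta, fell by 2.16 ± 0.733 on the log2 scale (adjusted p = 0.00096) on chromosome 13 at 56740460-56740519. Tgfb1 (-0.20), Tgfbr2 (-0.07 at its brightest probe), Smad2 (0.23) and Ctgf (-0.18) did not pass. Nor did 3 genes with larger means, namely Tgfb3 (0.86, adjusted p = 0.069), Tgfb2 (-0.67 at its brightest probe, adjusted p = 0.079) and Tgfbr1 (0.55 at its brightest probe, adjusted p = 0.076).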
